A study of Mus musculus with 2 samples.

Results

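Heme is made in a chain of enzyme reactions that starts and ends in the mitochondrion. The set described here holds 9 genes of that chain: Alas1, Alas2, Alad, Uros, Urod, Cpox, Ppox, Fech and the mitochondrial carrier Slc25a38. They were taken by name, as every array probe whose gene name in the scanner files equals 1 of these symbols. All 9 were found, with 11 probes of 41174 on the array, or 9 of 27600 gene names. Each member probe was printed as 1 spot. All 11 probes were well above background on both arrays, so no member was lost to the filter on low signal. The set does not hold every enzyme of the chain.

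The study compared LSK cells of PAD4-/- mice with LSK cells of WT mice, on 1 array each. LSK cells are bone marrow cells with no lineage markers and with Sca-1 and c-Kit on their surface, a fraction that holds blood stem cells and their earliest multipotent descendants. Both groups were of the C57BL/6 strain per the labels, and 300 ng of RNA from FACS-sorted cells was labelled with Cy3 for each array. PAD4, encoded by Padi4, turns arginine residues of proteins into citrulline. The labels do not say how Padi4 was disrupted, how many mice gave cells, or how old and of which sex they were.

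In the pathway, glycine and succinyl-CoA are joined to aminolevulinic acid in the mitochondrial matrix by 1 of a pair of synthases. Alas1 is the housekeeping form, used in all tissues and held down by heme itself. Alas2 is the form of developing red cells, is encoded on the X chromosome, and is driven by erythroid transcription factors of the GATA type. The middle steps (Alad, Uros, Urod) run in the cytosol. Cpox, in the space between the mitochondrial membranes, and Ppox and Fech, at the inner membrane, complete the ring and insert the iron. Developing red cells need far more heme than other cells, and in multipotent progenitors heme serves cytochromes and other enzymes.

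The promoters of 3 members are shown: those of the housekeeping synthase and the erythroid synthase, which hold different motifs, and that of Cpox, which holds the same motif as the erythroid synthase and is the member with the highest value on the PAD4-/- array relative to WT. Each is 300 bases of RefSeq sequence (GRCm38.p6), 250 before the annotated start site and 50 after it, written 5′ to 3′ on the strand of the gene. Capitals mark the core of the binding motif of the factor NRF1, searched as GCGCATG on both strands, in Alas1, where a match on each strand overlaps with the other. In Alas2 and Cpox they mark the GATA motif, searched as AGATAA or TGATAA on both strands.
Alas1 (chr9:106247905-106248204, minus strand): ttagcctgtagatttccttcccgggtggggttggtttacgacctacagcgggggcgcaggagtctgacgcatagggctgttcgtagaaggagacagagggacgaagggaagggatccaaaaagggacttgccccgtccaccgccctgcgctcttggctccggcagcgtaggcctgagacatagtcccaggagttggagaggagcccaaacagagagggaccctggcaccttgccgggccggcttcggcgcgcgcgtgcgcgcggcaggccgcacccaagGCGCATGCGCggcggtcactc
Alas2 (chrX:150547167-150547466, plus strand): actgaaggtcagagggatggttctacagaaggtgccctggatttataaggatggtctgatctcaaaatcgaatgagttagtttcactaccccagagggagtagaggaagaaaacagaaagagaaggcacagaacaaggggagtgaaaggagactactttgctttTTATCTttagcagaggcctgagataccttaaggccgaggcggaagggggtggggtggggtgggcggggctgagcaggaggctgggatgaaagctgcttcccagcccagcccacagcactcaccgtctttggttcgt
Cpox (chr16:58669958-58670257, plus strand): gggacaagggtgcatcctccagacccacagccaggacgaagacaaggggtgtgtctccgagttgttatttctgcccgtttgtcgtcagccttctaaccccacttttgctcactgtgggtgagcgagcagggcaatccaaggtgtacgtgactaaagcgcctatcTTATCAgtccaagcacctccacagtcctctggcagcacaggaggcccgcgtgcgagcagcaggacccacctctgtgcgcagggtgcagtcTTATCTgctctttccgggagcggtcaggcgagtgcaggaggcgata

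Of the 9 members, 8 had at least 1 promoter window in the RefSeq table, with 11 windows in all. Fech is the member without one. Among the 11 member windows, the GATA motif was found in 1 window each of 3 members. It was there once in Alas2, 2 times in Cpox and once in the second window of Uros. Of all 32851 promoter windows, 18.6% held it. The NRF1 core lay in Alas1, in a stretch that its 2 overlapping windows share, and in no window of another member, against 3.91% of all windows. The E-box CACGTG, a motif of MYC and related factors, was in windows of the cytosolic enzymes. It lay in both windows of Alad, the first of Uros and the only one of Urod, against 7.15% of all windows. The core TGANTCA, bound by NFE2 and BACH1, was in no member window (7.81% of all windows). These are matches of letters and do not show binding.

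Levels come first as the processed signal, the brightness of a probe in scanner units after background subtraction. The brightness of different probes depends on their sequence as well as on the transcript, so the signals of Alas1 and Alas2 cannot be ranked against each other. Each probe is compared with itself on the other array. The difference is the log2 value of the PAD4-/- array minus that of the WT array, after each array was scaled to its 75th percentile. Its error is the scanner's own error of a spot carried through both arrays, 0.20 to 0.21 for every member probe, which covers reading the spot and not the variation between mice. With 1 array per group there is no replicate check and no test between genotypes. A gene was counted as different from 1.5-fold upwards, which is 0.58 on the log2 scale.

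None of the 9 heme synthesis genes was 1.5-fold higher on the PAD4-/- array, against 2.88% of all 17022 genes measured on both arrays, and none was 1.5-fold lower, against 1.87% of all genes. Their median difference was 0.06, and that of all genes 0.02. Of the members 5 lay above 0 and 4 below. For 6 of the 9 the difference was smaller than its own scanner error, and the same held for 69.9% of all genes. Cpox and Alas2 were the members more than 0.32 away from 0 on the log2 scale, 1 in each direction, where 8.86% of all genes were higher and 8.05% lower by that amount.

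Slc25a38 carries glycine into the mitochondrion in yeast and man. Its probe (mm8 chromosome 9, 119972547 to 119972606) read 1438 on the PAD4-/- array and 1520 on the WT array, a log2 difference of -0.03. The difference was well within the scanner error of 0.20.

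Alas1, the housekeeping synthase, had 2 probes. The brighter (mm8 chromosome 9, 106092237 to 106092296) read 4607 on the PAD4-/- array, against 4034 on the WT array, a difference of 0.24 with an error of 0.20. The other (106093573 to 106093632) had 1028 on the PAD4-/- array and 963 on the WT array, a difference of 0.14. Both probes were slightly higher on the PAD4-/- array, the brighter one by more than its error. Of all measured genes, 14.0% had a difference as high as 0.24 or higher.

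Alas2, the erythroid synthase, had 1 probe (mm8 chromosome X, 145911166 to 145911225). Its signal was 136 on the PAD4-/- array, against 195 on the WT array. The log2 difference was -0.47 with an error of 0.21, or 0.723 of the WT level. Both signals were clear of background: 7.37 times the lowest signal well above background on the PAD4-/- array, and 11.0 times on the WT array. Among all measured genes, 3.31% had a difference as low or lower. Alas2 was the lowest of the 9 members.

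The pair of synthases thus lay on opposite sides of 0. The difference of Alas2 minus that of Alas1 was -0.71 with the brighter Alas1 probe and -0.61 with the other, each with a scanner error of 0.29. Both gaps were larger than their error, but with 1 array per genotype no spread between mice stands behind them.

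**Figure D1:**
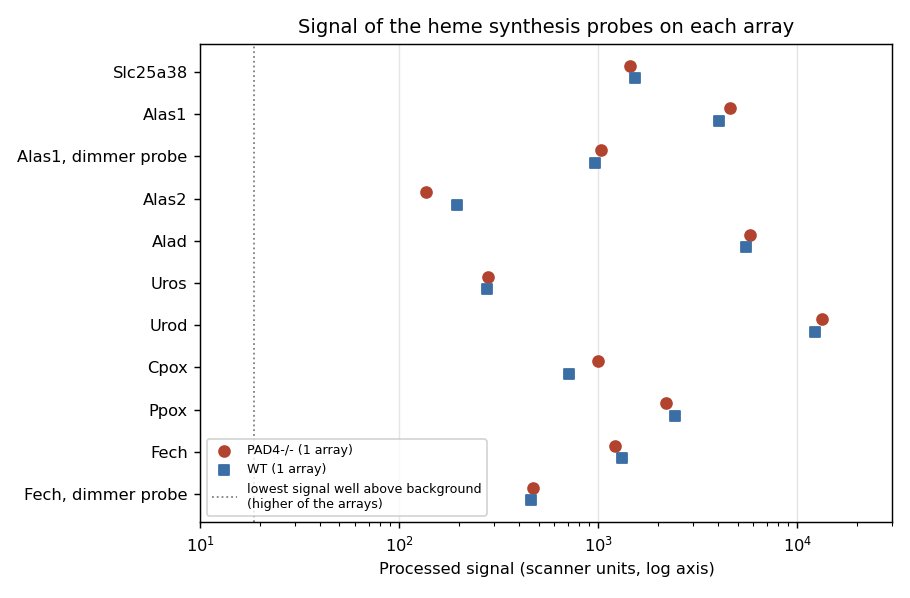
Processed signal (scanner units, log axis) of each heme synthesis probe on the PAD4-/- array (circles, upper) and the WT array (squares, lower), in pathway order, with the lowest signal well above background dotted. Alas2, at 136 on the PAD4-/- array and 195 on the WT array, is the dimmest probe; probes of different genes cannot be ranked by brightness.

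The cytosolic enzymes were close to equal on both arrays. Alad joins aminolevulinic acid molecules into a pyrrole, and its probe (mm8 chromosome 4, 61997122 to 61997267, an interval of 146 bases, where most member probes span 60) had 5779 on the PAD4-/- array and 5537 on the WT array, a difference of 0.11. Uros, which closes the ring, had 277 on the PAD4-/- array and 276 on the WT array at its probe (chromosome 7, 133536012 to 133536071), a difference of 0.06. Urod trims the side chains of the ring, and its probe (chromosome 4, 116488177 to 116488236) had 13249 on the PAD4-/- array and 12241 on the WT array, a difference of 0.16. All 3 were above 0 by less than their error, with a median of 0.11, against -0.04 for the 6 mitochondrial members.

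Cpox, which oxidises coproporphyrinogen and is the enzyme where the pathway re-enters the mitochondrion, had the highest difference of the set. Its probe (mm8 chromosome 16, 58622833 to 58622895) read 999 on the PAD4-/- array, against 714 on the WT array. The difference was 0.53 with an error of 0.20, or 1.45-fold. Of all measured genes, 3.37% were as high or higher. It lay just inside the 1.5-fold limit, rests on 1 probe, and exceeded its scanner error.

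The closing enzymes did not share that value. Ppox, which oxidises protoporphyrinogen, had 2176 on the PAD4-/- array and 2430 on the WT array at its probe (mm8 chromosome 1, 173113996 to 173114173, an interval of 178 bases), a difference of -0.11. Fech, which inserts the iron, had 2 probes on chromosome 18. The brighter had 1217 on the PAD4-/- array and 1311 on the WT array, a difference of -0.06. The dimmer had 468 on the PAD4-/- array and 459 on the WT array, a difference of 0.08. The sign of Fech thus depended on the probe, and all 3 values were within the scanner error.

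**Figure D2:**
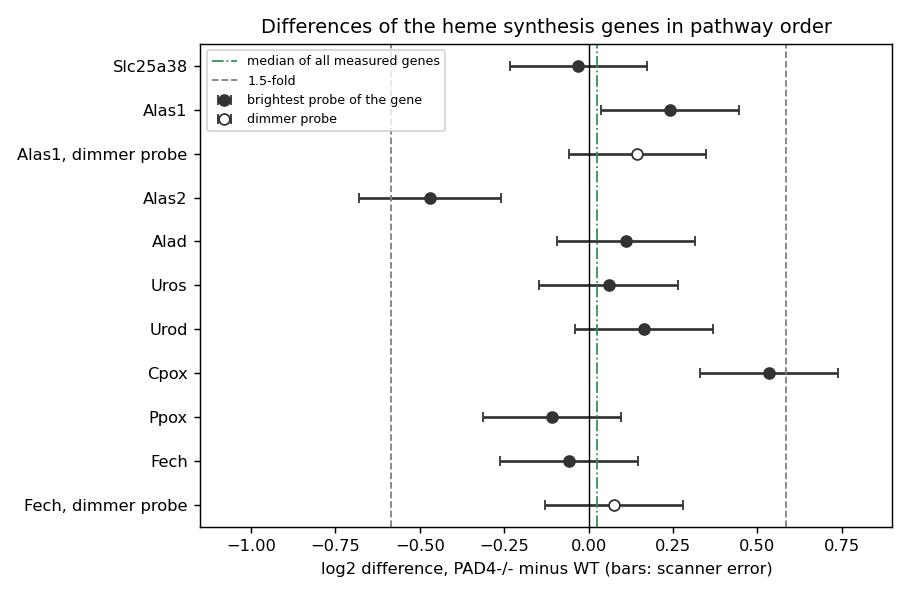
Log2 difference, PAD4-/- minus WT, of each heme synthesis probe in pathway order, with bars for the scanner error, dashed lines at 1.5-fold and the median of all measured genes (0.02). Alas2 (-0.47) and Cpox (0.53) stand apart from 0 on either side, and the remaining members lie between -0.11 and 0.24.

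Genes around the pathway were read from lists chosen with earlier results of these data known. The list of heme supply had 18 measured genes (mitochondrial iron import, iron-sulphur clusters, porphyrin transport, glycine and succinyl-CoA). None was 1.5-fold higher, against 2.88% of all genes, and none was 1.5-fold lower, against 1.87%. The median was 0.06. Of the 18, 16 (88.9%) lay within their scanner error, against 69.9% of all genes. Slc25a37, the iron carrier mitoferrin-1 of developing red cells, had 4841 on the PAD4-/- array and 4815 on the WT array, a difference of 0.06. Slc25a28, the housekeeping mitoferrin-2, differed by -0.06. Abcb10, a mitochondrial transporter needed for hemoglobin synthesis, had the highest value of that list, 0.35 at its brightest probe and 0.21 at the other. Tmem14c, which takes part in porphyrin transport, differed by 0.25.

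Heme exit and breakdown genes had a median of 0.00 over 7 measured genes of 8. None was 1.5-fold higher or lower, against 2.88% and 1.87% of all genes. Of the 7, 4 lay within their scanner error, against 69.9% of all genes. Hmox1, the inducible heme oxygenase, had 930 on the PAD4-/- array and 1119 on the WT array, a difference of -0.22, while the constitutive Hmox2 differed by 0.01. The biliverdin reductases Blvra and Blvrb differed by 0.09 and 0.21. The exporters Flvcr1 and Abcg2 each differed by 0.00 at the brightest probe. Por, the reductase that feeds electrons to heme oxygenases and cytochrome P450 enzymes, was the lowest, at 12836 on the PAD4-/- array, against 17710 on the WT array, a difference of -0.41.

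Of 16 heme and iron regulators, again none was 1.5-fold higher or lower, against 2.88% and 1.87% of all genes. Their median was -0.09. Bach1, a repressor that heme removes from its target genes, had 1942 on the PAD4-/- array and 2559 on the WT array, a difference of -0.35. Ppargc1a, a coactivator that induces Alas1 in liver, was dim and differed by -0.41 and -0.21 at its 2 probes. Eif2ak1, the heme-regulated kinase of translation, differed by -0.14 at its brightest probe. Tfrc, the transferrin receptor, was printed in 10 spots whose log2 values had an SD of 0.03 on the PAD4-/- array and 0.04 on the WT array. It had 1005 on the PAD4-/- array and 960 on the WT array, a difference of 0.12. Ftl1, a ferritin chain, differed by -0.30.

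Among the heme lists, only that of the users of heme held genes past the fold. Of 16 measured, 2 were 1.5-fold higher and none lower, against 2.88% and 1.87% of all genes, with a median of 0.09. Cybb, the heme-binding chain of the phagocyte oxidase, had 74.0 on the PAD4-/- array and 24.0 on the WT array, a difference of 1.67 with an error of 0.31, and its second probe was not well above background. Epx, the eosinophil peroxidase, had 114 on the PAD4-/- array and 50.2 on the WT array, a difference of 1.24. Both genes were dim on the WT array, Cybb at 1.36 and Epx at 2.84 times the lowest signal well above background. Mpo, the neutrophil peroxidase, had a difference of 0.58, just under the fold. Cybb, Epx and Mpo belong to granule and phagocyte cells. In the same list, Cyba was brighter than Cybb and went the other way. It had 3398 on the PAD4-/- array and 4143 on the WT array, a difference of -0.24. Cytochrome c (Cycs) differed by 0.36, 0.39 and 0.26 at its 3 probes, while Cox10, which starts heme A synthesis, had 143 on the PAD4-/- array and 212 on the WT array, a difference of -0.51.

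**Figure D3:**
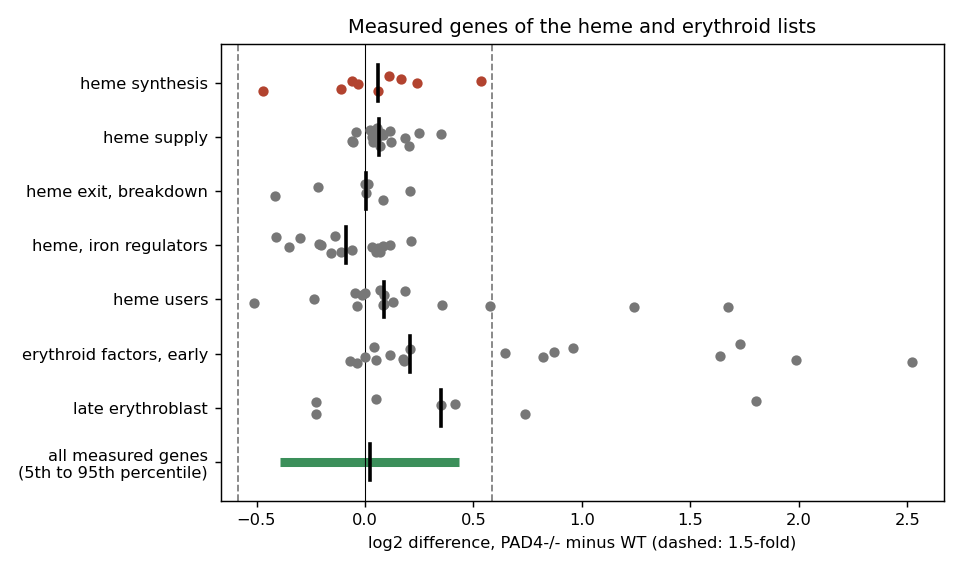
Log2 difference, PAD4-/- minus WT, of every measured gene in the heme and erythroid lists (points at the brightest probe, vertical jitter only for display), with list medians as black bars and the 5th to 95th percentile of all genes (-0.39 to 0.44) in green. The heme synthesis genes stay inside 1.5-fold, and 8 of the 17 erythroid factors and early genes lie above it, against 2.88% of all genes.

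Erythroid genes were set beside the pathway because Alas2 is itself an erythroid gene. Of 17 measured erythroid factors and early genes, 8 were 1.5-fold higher on the PAD4-/- array and none was lower. The shares of all genes were 2.88% and 1.87%. The median of the 17 was 0.21. Gata1, the X-linked factor that activates Alas2 in red cell precursors, was printed in 10 spots and had 459 on the PAD4-/- array, against 244 on the WT array, a difference of 0.96. Klf1, another red cell factor, had 253 on the PAD4-/- array and 84.3 on the WT array, a difference of 1.63. Epor, the erythropoietin receptor, differed by 0.87. Gfi1b, Car1, Ermap, Rhd and Aqp1 were the other 5, between 0.65 and 2.52. The highest, Ermap, was dim on the WT array, at 32.4, or 1.83 times the lowest signal well above background. Rhd and Klf1 were at 3.55 and 4.76 times that signal on the WT array. Alas2 did not share the direction of these 8: its difference of -0.47 lay below the lowest of the 17, which was -0.07.

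Genes of late erythroblasts gave a mixed picture. Of the 14 listed, 7 were measured, with a median of 0.35. Of these, 2 were 1.5-fold higher (Kel and Ank1, a blood group protein and a membrane anchor) and none was lower. The shares of all genes were 2.88% and 1.87%. Kel was dim on the WT array, at 48.0, or 2.71 times the lowest signal well above background. The alpha globin probes Hba-a1 and Hba-a2, which are near-identical copies and can share signal, differed by -0.22 and -0.23. Slc4a1, the anion exchanger of the red cell membrane, differed by 0.05. The summed processed signal of the 7 measured genes, most of it from the globin probes, was 7151 on the PAD4-/- array and 8252 on the WT array. In bulk RNA, fewer cells of a type and less RNA per cell cannot be told apart.

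Markers of other lineages differed between the arrays too. Over all measured genes, 2.88% were 1.5-fold higher and 1.87% lower on the PAD4-/- array. The number 1.5-fold higher was 4 of 6 measured mast cell and basophil genes (Gzmb, Hdc, Fcer1a, Mcpt8), 3 of 9 neutrophil genes (Elane, Ms4a3, Ctsg), 3 of 7 monocyte and dendritic genes (F13a1, Ccr2, H2-Eb1), 2 of 5 T and NK genes (Tcf7, Il2rb, with Prf1 lower) and 3 of 6 platelet genes (Selp, Pf4, Gp1bb). The summed signal was 3917 on the PAD4-/- array and 2242 on the WT array for the mast cell and basophil genes, and 179869 on the PAD4-/- array and 122193 on the WT array for the neutrophil genes. Most of the neutrophil sum came from Mpo, at 118188 on the PAD4-/- array and 81966 on the WT array. The monocyte and dendritic genes summed to 59724 on the PAD4-/- array and 56262 on the WT array, and the platelet genes to 10073 on the PAD4-/- array and 8332 on the WT array. The sum of the T and NK genes was lower, with 1484 on the PAD4-/- array and 1619 on the WT array. Most of that sum came from Thy1, at 1089 on the PAD4-/- array and 1356 on the WT array. The median difference of the 5 measured T and NK genes was 0.33, with 3 above 0 and 2 below. The B cell genes Pax5, Pou2af1 and Vpreb3 were also 1.5-fold higher. The sort markers Kit and Ly6a differed by 0.07 and -0.14, and Flt3, of lymphoid-primed progenitors, was 1.5-fold lower. The part of other cell types in the values of Alas2, Cpox, Cybb and Epx was not tested.

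Further checks bear on the arrays as a whole. Padi4 was lower on the PAD4-/- array at all 3 probes, at 0.215, 0.212 and 0.242 of the WT level; the labels do not say whether they lie in the deleted part. The arrays also differed in sex-linked RNA: the brightest Xist probe had 16255 on the PAD4-/- array and was not well above background on the WT array, while Ddx3y had 1297 on the PAD4-/- array and 3455 on the WT array. Ddx3y was clear of background on the PAD4-/- array too, at 70.1 times the lowest signal well above background. The PAD4-/- array thus held both Xist and Y-linked RNA, so the arrays are not a plain contrast of female with male. Sex-linked RNA differed along with genotype. For every difference given here, the part of sex cannot be told apart from that of genotype and was not tested. Alas2 is X-linked. The 559 measured genes of the X chromosome had a median of 0.03, against 0.02 for 16307 autosomal genes, and 2.15% of them were as low as Alas2 or lower, against 3.32% of the autosomal genes.

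Results of other processing settings are shown for the members. Over 13 alternatives, the Alas2 difference ranged between -0.52 and -0.32, that of Cpox between 0.48 and 0.55, and that of Alas1 between 0.14 and 0.25. Alas2 minus Alas1 was between -0.73 and -0.54. Each of these kept its sign in all 13, though some of the settings could not move them. Alas2 and Cpox have no second probe, so the choice of probe left their values as they were. All member probes were above background on both arrays, so looser signal filters changed no member value. Scaling by a constant per array cannot change Alas2 minus Alas1. Fech was the member whose sign turned, in 2 of the 13, when its dimmer probe or the mean of its probes was used.

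**Figure D4:**
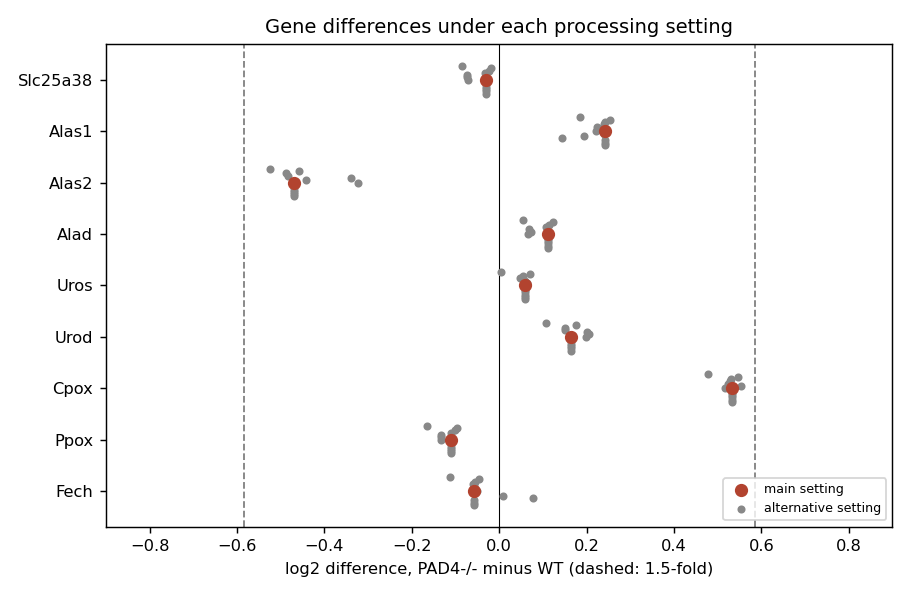
Log2 difference, PAD4-/- minus WT, of each heme synthesis gene with the main processing (large points) and with 13 alternatives (small points, vertical offset only for display), with dashed lines at 1.5-fold. No point passes 1.5-fold, Cpox is the highest and Alas2 the lowest under every setting, and Fech crosses 0.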

How the data were processed

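Both arrays were 1-colour Agilent arrays of design 014868, read with Feature Extraction 9.5.3.1 with probe coordinates on mm8, per the file headers (the submitters' processing notes name version 9.5). They shared 1 slide and 1 scan. The deposited files hold spot intensity on a linear scale, which the authors' software had background-subtracted and detrended, beside raw mean and background signals. The authors' value table holds log2 values: each column was the log2 processed signal minus a constant (9.62 for PAD4-/- and 9.67 for WT) for all 41174 probes within 0.001, with column medians of -3.53 and -3.59. Its scale, lack of gene centring and direction are thus known.

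Computed here was log2 of the processed signal over unflagged spots, minus the 75th percentile of each array (786 for PAD4-/- and 814 for WT). Of the probes, 64.1% on the PAD4-/- array and 63.9% on the WT array were well above background. Repeated spots had a median SD of 0.05 and 0.06, and the number of arrays limits the precision. A gene took its brightest probe above background on both arrays. Names came from RefSeq (GRCm38.p6): 24375 probes matched by accession, 6303 by symbol and 2418 by an older synonym, while 8078 went by the array's own name. Named genes were the members, Padi4, list genes 1.5-fold different and well-known genes of each list; other named genes were chosen after their values were seen. Some list genes are not reported here. Members and lists were chosen with earlier results of these data known. Python 3.11.15, numpy 2.4.6, pandas 2.3.3 and limma 3.58.1 in R 4.3.3 were used.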

Additional observations from a re-analysis of the deposited data

How the results depend on the processing

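No paired analysis was possible because a single array stood for each genotype, and none could be left out. No heme synthesis gene was 1.5-fold different under any of the 13 other settings for scaling, background, probe choice and signal filter. With a limit of 0.32 (log2) there was 1 higher (Cpox) and 1 lower (Alas2). The median of the members and the gap between Alas2 and Alas1 moved by less than their scanner error throughout. Looser signal filters could not move either, and scaling by a constant per array could not move the gap. Over all genes, the 490 higher and 318 lower at 1.5-fold became 204 and 132 with normexp and an offset of 50, and 204 and 125 with no background subtraction. Asking for signal above background on either array gave 962 and 622, and asking for none gave 2310 and 1395. At a fold of 2 they were 172 and 81, and past 0.32 they were 1508 and 1371. An offset or unsubtracted background shrinks differences of dim probes by construction, and looser filters add dim probes. Signal over background limits Alas2 most among the members: its difference was -0.34 with the offset and -0.32 with no subtraction.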

Other observations

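Some genes around the heme pathway had probes that disagreed, picked out here after their values were seen. Nfe2l2, an activator of Hmox1 and other protective genes, differed by 0.21 and 0.25 at its brighter probes and by -0.50 at its dimmest, where the signal was 1269 on the PAD4-/- array and 1855 on the WT array. Suclg2, a subunit of the enzyme that makes or uses succinyl-CoA, differed by 0.20 at its brighter probe and by -0.35 at the other. Cyb5b, the cytochrome b5 of the outer mitochondrial membrane, differed by 0.07 at its brighter probe and by 0.48 at the other. Alas2, Cpox and Cox10, the genes with the widest differences in heme and heme A synthesis, each have 1 probe on this array, so no second probe bears on their values.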
